A study of Mus musculus with 15 samples.

Results

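BALBc mice are described by the series as resistant to oxygen-induced retinopathy, a model of eye disease in which high oxygen after birth leads to loss of small vessels in the retina, and C57 mice as susceptible. This account covers the response of the BALBc liver to that oxygen exposure, 7 of the 15 liver libraries. BALBc hyperoxia (4 libraries) came from mice kept in room air from birth to postnatal day 7 and then in 75% oxygen to day 12, and BALBc normoxia (3 libraries) from mice labelled as kept in normal room air, with harvest at day 12 taken from the shared protocol. The same exposures in C57, C57 hyperoxia (4 libraries) and C57 normoxia (4 libraries), entered the model for its estimate of the spread and for a test of whether the strains responded differently. No genotype beyond the strain is given, and the labels used here name no substrain or sex and do not say how many animals stand behind a library. Nothing in them states that replicates are separate animals, so the p-values reflect the spread among these libraries alone, some of which may be technical. Total RNA of whole liver was sequenced, and expression is given as FPKM, fragments scaled to the length of the transcript and the size of the library.

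The liver sets the iron level of the body through hepcidin, a peptide hormone made by hepatocytes that blocks ferroportin, the iron exporter, and whose gene is switched on by bone morphogenetic protein (BMP) signalling through SMAD proteins. It also makes cholesterol through enzymes controlled by the transcription factor SREBP2, burns fatty acids in fasting under the nuclear receptor PPARA, and clears ammonia and amino acids mostly in hepatocytes near the portal vein. In newborn mice the liver is still a site of blood formation, so RNA of red cell, platelet and neutrophil precursors can be measured in it.

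Genes were kept where FPKM reached 1 in at least 3 of the 7 BALBc libraries, which left 11943 of the 54532 genes in the table, 10635 of them protein-coding. At this limit 447 genes reached FPKM 1 in exactly 3 of the libraries and 591 in exactly 2. Among all genes Fcrla lay nearest inside the limit, with 1 FPKM in the library that ranks 3 from the top, and Pygo1 nearest outside it, with 0.9999 FPKM there. The steps between low values gave 1.51e+07 to 1.91e+07 fragments behind each BALBc library, so that 3 fragments on a transcript of 1000 bases stand for 0.157 to 0.199 FPKM. None of 20 hepatocyte markers, among them Alb and Apoa1, was called, although their summed level was 91964 to 94271 FPKM in hyperoxia and 96942 to 103822 FPKM in normoxia, and the pancreas genes Prss1 and Pnlip were listed at 0 in all 7. BALBc hyperoxia 1 and BALBc normoxia 1 had many genes at exactly 1 fragment, 33.2% and 33.6% of the genes at 1 to 10 fragments, against 10.3% to 17.8% in the other 5 BALBc libraries. Each BALBc group held libraries with high Xist and libraries with almost none. On the first principal component of the 7 libraries, which held 29.9% of the variance, the hyperoxia libraries lay close together, at -13 to -11.3, and the normoxia libraries lay apart, at 4.95, 17.2 and 25.6 for replicates 1, 2 and 3. Yet BALBc hyperoxia 1 and BALBc normoxia 1, which share many genes at 1 fragment, had a Pearson correlation of 0.9846, above every pair within a group. Pairs within hyperoxia gave 0.9759 to 0.9827 and pairs within normoxia 0.9721 to 0.9776. The part of this trait was not tested.

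The largest change among the genes called in the BALBc liver was that of a pair of hepcidin genes. The limma model, with Benjamini-Hochberg adjustment and a limit of 0.05, called 141 of the 11943 genes, 1.18%. Of these, 58 were higher in hyperoxia (0.486%) and 83 were lower (0.695%). A change of at least 2-fold was reached by 16 of the higher and 18 of the lower genes, and the median absolute log2 change of the called genes was 0.68. All log2 changes here are differences of log2(FPKM + 1), hyperoxia minus normoxia, given with their standard error. This scale understates the change of weakly expressed genes. Before adjustment, 1580 genes had a p under 0.05, and the median log2 change over all genes was -0.00181. In all 141 called genes, the 4 hyperoxia values lay outside the range of the 3 normoxia values, as they did in 1698 of all genes tested (14.2%), 789 above (6.61%) and 909 below (7.61%). Where groups of a called gene are said below not to overlap, this therefore adds nothing to its call. The counts of list members given below are to be read beside these shares of all genes: 1.18% called, 6.61% above and 7.61% below.

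**Figure D1:**
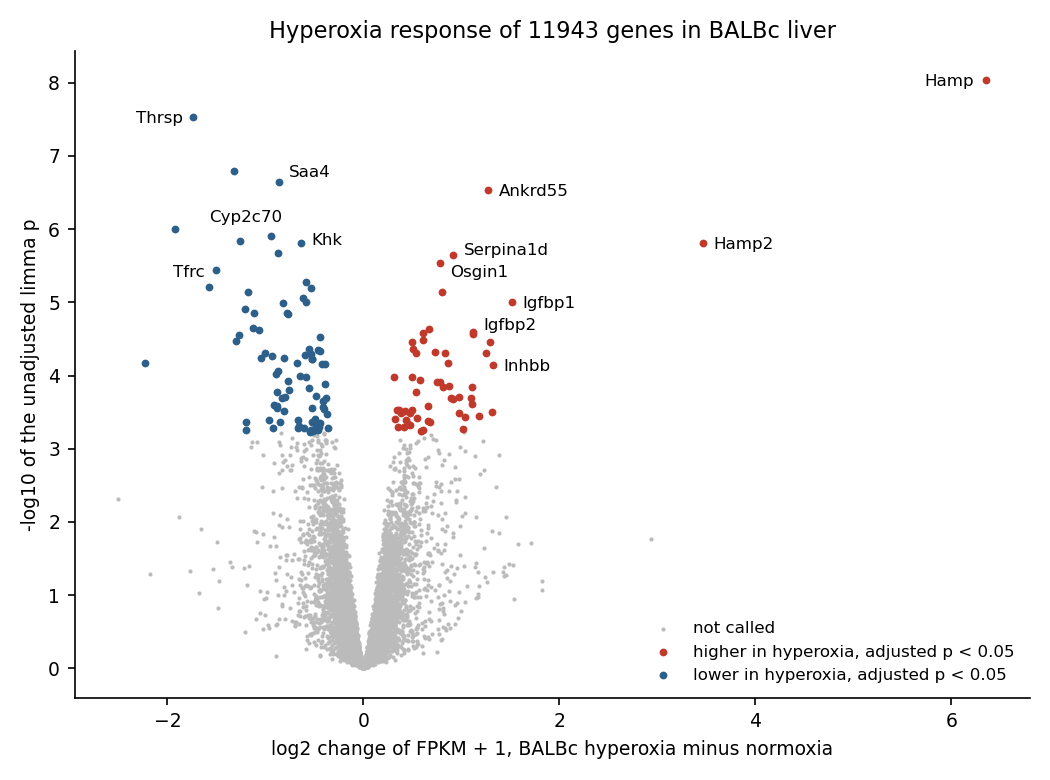
Each point is 1 of the 11943 genes tested, with the log2 change of FPKM + 1 in BALBc hyperoxia minus BALBc normoxia across and the negative log10 of the unadjusted limma p up; red and blue points are the 58 genes higher and the 83 genes lower in hyperoxia at an adjusted p under 0.05. Hamp and Hamp2 lie far to the right of all other called genes.

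The number of calls rested on single libraries. Without BALBc normoxia 3 the model called 27 genes, 25 of them among the 141, and without BALBc normoxia 2 it called 61, whereas leaving out a hyperoxia library gave 72 to 80 and leaving out BALBc normoxia 1 gave 168. No called gene changed its direction in any refit. That outcome was fixed, because the groups of every called gene did not overlap and C57 libraries do not enter the BALBc change. In all 15 refits that each left out 1 library, 23 of the 141 genes kept their call, 7 higher and 16 lower. The 7 were Hamp, Hamp2, Igfbp1, Ankrd55, Serpina1d, Itgb3 and Osgin1. Among the 16 were Thrsp, Tfrc, Mug1, Sult2a1, Cyp2c70, mt-Cytb, Saa4, Rab27a, Khk, Haao, Fkbp4, Ahcy and Gm17622. Of the 23, 13 lost their call under another alternative. In the libraries with few genes at 1 fragment alone 12 were lost, among them Igfbp1, Ankrd55, Itgb3, Osgin1, Mug1, Sult2a1, Cyp2c70, Haao, Rab27a and Gm17622. With a pseudocount of 0.1 Thrsp and Ankrd55 were lost. The other 10, among them Hamp, Hamp2, Serpina1d, Tfrc, Saa4, Khk, Fkbp4, Ahcy and mt-Cytb, kept their call under every alternative that tested them. Where a call below is said to hold in every refit, the 15 refits that leave out 1 library are meant. For a called gene named below that is not among these, the call was lost in at least 1 refit, and the highest adjusted p over the refits is given where its values are given.

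Hamp, which encodes hepcidin, gave 67.8, 318, 302 and 339 FPKM in BALBc hyperoxia libraries 1 to 4, against 2.68, 1.11 and 1.42 FPKM in BALBc normoxia libraries 1 to 3. Hyperoxia library 1 was the lowest of its group, and still its level was far above every normoxia library. Its log2 change of 6.36 ± 0.55 had a limma adjusted p of 0.00011. The ratio of the mean levels was 148, but this ratio rests on a low normoxia mean of 1.735 FPKM and is uncertain. Hamp2, a neighbouring copy whose protein in mice is not known to act on iron in the same way, gave 36.9, 45.02, 57.8 and 45.8 FPKM in hyperoxia and 3.77, 2.78 and 3.22 FPKM in normoxia, with no overlap between the groups, and rose by 3.47 ± 0.45 (limma adjusted p = 0.00185). Their longest protein-coding transcripts in GENCODE M21 were identical at 94.6% of 410 aligned bases, so reads may have been divided between them and the separate values are uncertain, although in hyperoxia Hamp exceeded Hamp2 in every library while in normoxia Hamp2 exceeded Hamp in every library.

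The 250 bases before the start of each gene, from RefSeq on build GRCm38.p6, are shown because both genes rose and because the short BMP-responsive element core GGCGCC, a palindrome searched on both strands, is in one of them. Capitals mark the match. The Hamp stretch is chr7:30944030-30944279 and the Hamp2 stretch chr7:30924182-30924431, both on the minus strand and written 5′ to 3′.
Hamp: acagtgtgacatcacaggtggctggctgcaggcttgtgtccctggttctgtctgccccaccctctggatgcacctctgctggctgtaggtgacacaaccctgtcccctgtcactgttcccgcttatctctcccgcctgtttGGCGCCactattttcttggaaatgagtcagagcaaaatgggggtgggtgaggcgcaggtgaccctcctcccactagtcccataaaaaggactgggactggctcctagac
Hamp2: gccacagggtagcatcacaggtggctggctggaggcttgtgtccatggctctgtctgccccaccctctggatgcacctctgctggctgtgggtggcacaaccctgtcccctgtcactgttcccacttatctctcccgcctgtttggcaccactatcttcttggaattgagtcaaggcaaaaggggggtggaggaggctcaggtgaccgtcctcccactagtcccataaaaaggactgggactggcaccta
The Hamp match begins at position -109 from the start, and these letters are not in the Hamp2 stretch. The motif was in 11.9% of 32851 windows of 300 bases (250 before to 50 after a start) in the RefSeq table. Counted by gene, it was in a window of 24.4% of the 8695 genes tested that have one and of 7 of 17 measured genes of the hepcidin and BMP list (41.2%). Of the called genes of the hepcidin and BMP list, 4 had a window and 2 of these, Hamp and Id2, held the motif. A match is a description of the letters, not evidence of a bound factor.

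Beside the hepcidin genes, 3 others of the hepcidin and BMP-SMAD list were called, and all 3 calls were lost without normoxia 3. Id1, an inhibitor of helix-loop-helix transcription factors that SMADs switch on, gave 15.6, 30.7, 22.9 and 24.1 FPKM in hyperoxia and 9.23, 9.56 and 7.42 FPKM in normoxia, and rose by 1.29 ± 0.22 (limma adjusted p = 0.0107, highest over the refits 0.081 without normoxia 3). The lowest hyperoxia value was above the highest normoxia value. Id2, of the same family, gave 32.1, 34.7, 33.9 and 39.04 FPKM in hyperoxia and 22.3, 22.7 and 19.6 FPKM in normoxia, again without overlap, and rose by 0.67 ± 0.11 (limma adjusted p = 0.00944, highest 0.0708 without normoxia 3). Inhbb, the subunit of activin B, a secreted factor that can act on the same SMADs, gave 19.8, 21.7, 20.8 and 18.4 FPKM in hyperoxia and 13.6, 4.18 and 6.96 FPKM in normoxia. It was more even in hyperoxia than in normoxia, where library 1 was the highest, and rose by 1.32 ± 0.24 (limma adjusted p = 0.0139, highest 0.0865 without normoxia 3).

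Of 23 measured genes of the hepcidin and BMP-SMAD list, 5 were called higher and none lower, with a median log2 change of 0.13 against -0.00181 over all genes, and 7 had all hyperoxia values above all normoxia values. The 5 calls were 2 without BALBc normoxia 3 and 3 in the libraries with few genes at 1 fragment. Atoh8, a transcription factor of the same pathway (0.87 ± 0.22, limma adjusted p = 0.0694), and the ligand Bmp2 (0.37 ± 0.14, 0.232) lay above normoxia in all 4 hyperoxia libraries but were not called. The ligand Bmp6 did not reach the filter, with 0.769 to 1.25 FPKM in hyperoxia and 0.366 to 0.697 FPKM in normoxia. Receptors and cofactors showed small differences: 0.13 ± 0.11 for Hfe, 0.04 ± 0.07 for Tfr2, 0.09 ± 0.11 for Hfe2 (hemojuvelin) and -0.05 ± 0.09 for Tmprss6, the protease that cuts hemojuvelin, none of them called. The erythroid hormone gene Erfe, which lowers hepcidin, was at 0.181 FPKM or less in all 7 libraries.

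Tfrc, the transferrin receptor through which cells take up iron, moved the other way. It gave 23.9, 12.7, 13.5 and 13.1 FPKM in hyperoxia and 43.2, 46.3 and 46.1 FPKM in normoxia. All hyperoxia libraries were low, library 1 less so than the others, and the change of -1.51 ± 0.21 (limma adjusted p = 0.00312) held in every refit. It was the only call among 18 measured genes of iron uptake, storage and export, whose median log2 change was 0.02. Slc40a1, ferroportin, had a log2 change of 0.25 ± 0.09 (limma adjusted p = 0.231), and the ferritin genes Fth1 and Ftl1 of -0.06 ± 0.07 and 0.11 ± 0.10. Of 18 genes of haem synthesis and breakdown 1 was called, Blvrb, a biliverdin reductase, which gave 34.8, 43.3, 41.8 and 43.3 FPKM in hyperoxia and 30.3, 28.3 and 28.4 FPKM in normoxia and rose by 0.47 ± 0.10 (limma adjusted p = 0.0375, highest 0.144 without normoxia 3). Alas1, the enzyme that limits haem synthesis in hepatocytes, lay below normoxia in all hyperoxia libraries (-0.84 ± 0.19) without being called (limma adjusted p = 0.0504).

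**Figure D2:**
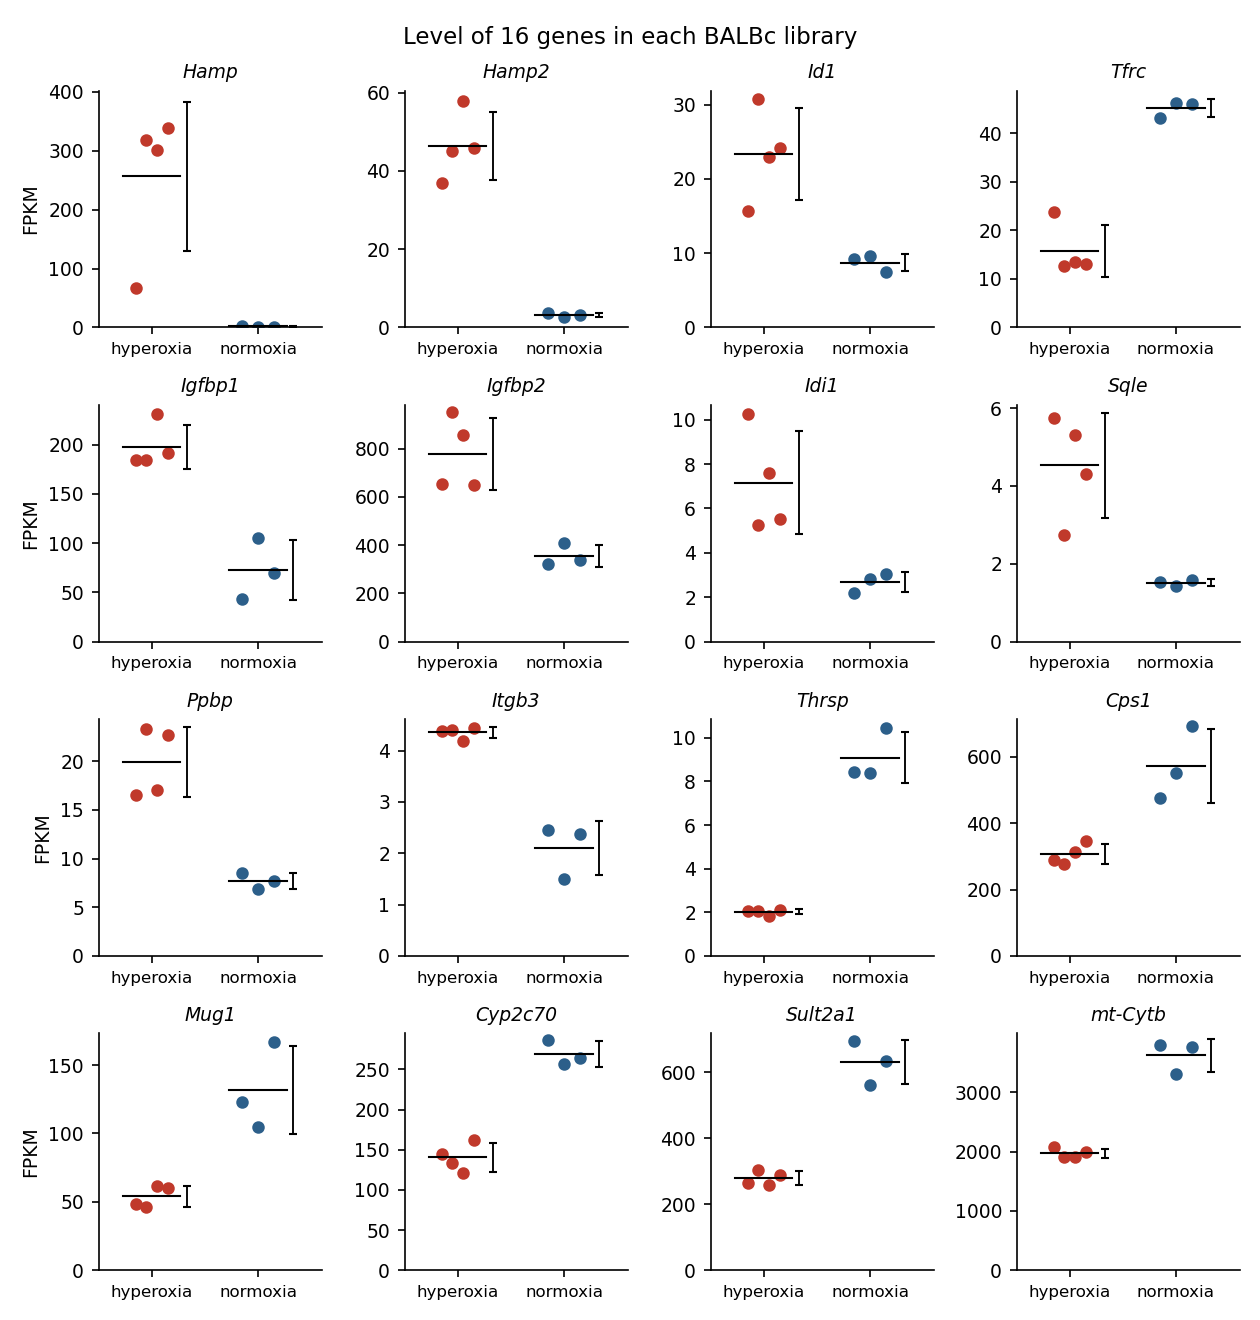
FPKM of 16 genes in each BALBc library, with 4 hyperoxia libraries at the left of each panel and 3 normoxia libraries at the right in the order of their replicate numbers; horizontal lines are group means and bars are ± 1 SD. In every panel the groups do not overlap, as in all 141 called genes, and Hamp is 67.8 FPKM or more in hyperoxia and 2.68 FPKM or less in normoxia.

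Several genes of cholesterol synthesis rose in hyperoxia. Of 24 measured genes 5 were called higher and none lower, and the median log2 change was 0.38. In all hyperoxia libraries 17 lay above normoxia and 1, Ebp, below, against 6.61% and 7.61% of all genes tested. Idi1, which isomerises the isoprene unit, gave 10.3, 5.26, 7.596 and 5.54 FPKM in hyperoxia and 2.21, 2.83 and 3.06 FPKM in normoxia and rose by 1.11 ± 0.22 (limma adjusted p = 0.023, highest 0.0856 without normoxia 3). Sqle, squalene epoxidase, gave 5.75, 2.73, 5.302 and 4.32 FPKM in hyperoxia and 1.54, 1.43 and 1.59 FPKM in normoxia and rose by 1.10 ± 0.22 (limma adjusted p = 0.0284, highest 0.103 without normoxia 3). Hyperoxia library 1 was the highest and library 2 the lowest of the group for both genes, and neither overlapped with normoxia.

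Nsdhl, a sterol dehydrogenase, gave 7.604, 4.698, 6.85 and 6.15 FPKM in hyperoxia and 3.02, 2.96 and 2.88 FPKM in normoxia and rose by 0.87 ± 0.17 (limma adjusted p = 0.0227, highest 0.103 without normoxia 3). Hmgcs1, an early enzyme of the pathway, gave 82.9, 55.96, 59.4 and 59.7 FPKM in hyperoxia and 47.1, 39.5 and 34.5 FPKM in normoxia and rose by 0.66 ± 0.14 (limma adjusted p = 0.0339, highest 0.174 without normoxia 3). As with Idi1 and Sqle, hyperoxia library 1 was the highest and library 2 the lowest of its group for both genes. Cyp51 (1.04 ± 0.26, limma adjusted p = 0.066) and Msmo1 (1.03 ± 0.24, 0.0501), which remove methyl groups from lanosterol, did not pass. The calls of the list rested on few libraries: there were none without hyperoxia 1, hyperoxia 3, normoxia 2 or normoxia 3, 1 without hyperoxia 4, 2 without normoxia 1 and 7 without hyperoxia 2, while the median stayed between 0.35 and 0.43 in these 7 refits.

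The 250 bases before Hmgcs1 (chr13:119690101-119690350, plus strand, RefSeq on GRCm38.p6) are shown for the sterol regulatory element TCACNCCAC, with N for any base, searched on both strands, which begins at position -137 from the start.
Hmgcs1: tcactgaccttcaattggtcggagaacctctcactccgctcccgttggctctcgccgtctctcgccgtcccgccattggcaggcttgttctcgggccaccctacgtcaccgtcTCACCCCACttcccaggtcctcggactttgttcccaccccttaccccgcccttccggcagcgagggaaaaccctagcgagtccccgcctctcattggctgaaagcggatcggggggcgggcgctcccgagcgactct
The motif was in 1.24% of the 32851 windows of 300 bases, in a window of 1.45% of the 8695 genes tested that have one, and in 1 of 17 measured genes of the cholesterol list (5.88%). Of the called genes of the list, 3 had a window, and Hmgcs1 alone of these held these letters. The windows of Idi1 and Nsdhl did not.

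Of 18 measured genes of fatty acid synthesis 1 was called, and it fell. Thrsp (Spot 14), a small protein that promotes fatty acid synthesis, gave 2.05, 2.08, 1.85 and 2.1 FPKM in hyperoxia and 8.43, 8.39 and 10.4 FPKM in normoxia. The hyperoxia libraries were nearly equal to each other and all far below normoxia, and the change of -1.74 ± 0.16 (limma adjusted p = 0.00017) held in every refit, but Thrsp was not called with a pseudocount of 0.1. The median of the list was -0.02, with 0.07 ± 0.16 for Fasn (fatty acid synthase), -0.18 ± 0.27 for Scd1 (stearoyl-CoA desaturase) and -0.35 ± 0.15 for Srebf1, none of them called. Fads1, which introduces a double bond in polyunsaturated fatty acids, gave 212, 217, 217 and 196 FPKM in hyperoxia and 159.5, 172 and 150.2 FPKM in normoxia and rose by 0.39 ± 0.08 (limma adjusted p = 0.0373, highest 0.181 without normoxia 3), 1 call among 9 measured genes of that pathway. Lpcat3, which places such fatty acids in phospholipids, rose by 0.50 ± 0.09 (limma adjusted p = 0.0107, highest 0.0799 without normoxia 3) but is outside the rule for named genes and was chosen after its values were seen.

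Several targets of PPARA and of fasting rose. Of 20 measured genes 4 were called higher and none lower, with a median of 0.26 and 9 above normoxia in all hyperoxia libraries. The 4 calls, Igfbp1, Pdk4, Txnip and Acot1, became 1 without normoxia 2, normoxia 3 or hyperoxia 4 and 2 without hyperoxia 1, 2 or 3. Pdk4, the kinase that shuts off pyruvate entry into the citric acid cycle, gave 16.1, 12, 10.4 and 17.1 FPKM in hyperoxia and 6.91, 6.28 and 6.19 FPKM in normoxia and rose by 0.97 ± 0.20 (limma adjusted p = 0.0284, highest 0.121 without normoxia 3). Txnip, an inhibitor of thioredoxin and of glucose uptake, gave 28.4, 35.5, 33.6 and 36.2 FPKM in hyperoxia and 22.9, 22.9 and 20.3 FPKM in normoxia and rose by 0.58 ± 0.11 (limma adjusted p = 0.0203, highest 0.112 without normoxia 3). The groups did not overlap for either gene.

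Acot1, a thioesterase that splits fatty acyl-CoA in the cytosol, gave 7.52, 8.45, 6.35 and 7.54 FPKM in hyperoxia and 4.32, 4.74 and 3.73 FPKM in normoxia and rose by 0.68 ± 0.15 (limma adjusted p = 0.0438, highest 0.199 without normoxia 3). Acot2, its mitochondrial relative, gave 18.9, 18, 18.5 and 16.1 FPKM in hyperoxia and 12.6, 12.7 and 9.22 FPKM in normoxia and rose by 0.61 ± 0.10 (limma adjusted p = 0.0107, highest 0.0585 without normoxia 3). Neither gene overlapped between the groups. The median over 10 measured acyl-CoA thioesterases was 0.40, with both calls among them lost without normoxia 3. In the list of peroxisomal and microsomal oxidation 2 of 20 were called higher. One of them, Cyp4a32, a fatty acid hydroxylase, gave 14.5, 16.1, 12.5 and 17.99 FPKM in hyperoxia and 8.403, 5.41 and 6.02 FPKM in normoxia and rose by 1.11 ± 0.23 (limma adjusted p = 0.0327, highest 0.135 without normoxia 2). Its transcript is identical to that of Cyp4a10 at 97.2% of 1530 aligned bases, so its value is uncertain, as are those of Acot1 and Acot2 at 82% of 1905. Neither call of that list was made without hyperoxia 1, hyperoxia 2, normoxia 2 or normoxia 3, and 1 was without hyperoxia 3 or 4. None of 21 measured genes of mitochondrial fatty acid oxidation and ketogenesis was called, with a median of 0.04. Of these, 6 lay above normoxia in all hyperoxia libraries and 0 below, against 6.61% and 7.61% of all genes tested. Cpt1a, which admits fatty acids to mitochondria, had 0.38 ± 0.09 (limma adjusted p = 0.057).

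Igfbp1 and Igfbp2, which encode binding proteins of insulin-like growth factors, rose. Igfbp1, which insulin lowers and fasting raises, gave 184, 185, 231 and 191 FPKM in hyperoxia and 43.5, 105 and 69.4 FPKM in normoxia. Normoxia library 1 was the lowest and library 2 the highest of its group, and all were below hyperoxia. The rise of 1.52 ± 0.23 (limma adjusted p = 0.00537) held in every refit. Igfbp2, also abundant in the young liver, gave 654, 949, 854 and 649 FPKM in hyperoxia and 321, 407 and 336 FPKM in normoxia and rose by 1.12 ± 0.19 (limma adjusted p = 0.00976, highest 0.0708 without normoxia 3), with no overlap. Insr, the insulin receptor, gave 12.9, 12.2, 11.5 and 11.8 FPKM in hyperoxia and 10, 9.81 and 8.04 FPKM in normoxia and rose by 0.35 ± 0.08 (limma adjusted p = 0.0469, highest 0.229 without normoxia 3). These were the 3 calls among 19 measured genes of the growth hormone and IGF axis, whose median was 0.13. There were 2 such calls without any 1 hyperoxia library or normoxia 2 and 4 without normoxia 1. The growth factor Igf1 itself had a log2 change of -0.02 ± 0.12, and Cish, a target of growth hormone signalling, of -0.85 ± 0.28 (limma adjusted p = 0.173). Only Igfbp1 was called without normoxia 3.

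Peg3, an imprinted zinc finger gene of fetal growth, gave 19.2, 17.98, 14.6 and 17.96 FPKM in hyperoxia and 9.59, 9.101 and 8.67 FPKM in normoxia, with no overlap, and rose by 0.86 ± 0.16 (limma adjusted p = 0.0139, highest 0.0865 without normoxia 3). It was the 1 call among 11 fetal and neonatal liver genes, whose median was 0.25. Afp, alpha-fetoprotein, was not called, at 1.38 ± 0.35 (limma adjusted p = 0.0694).

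**Figure D3:**
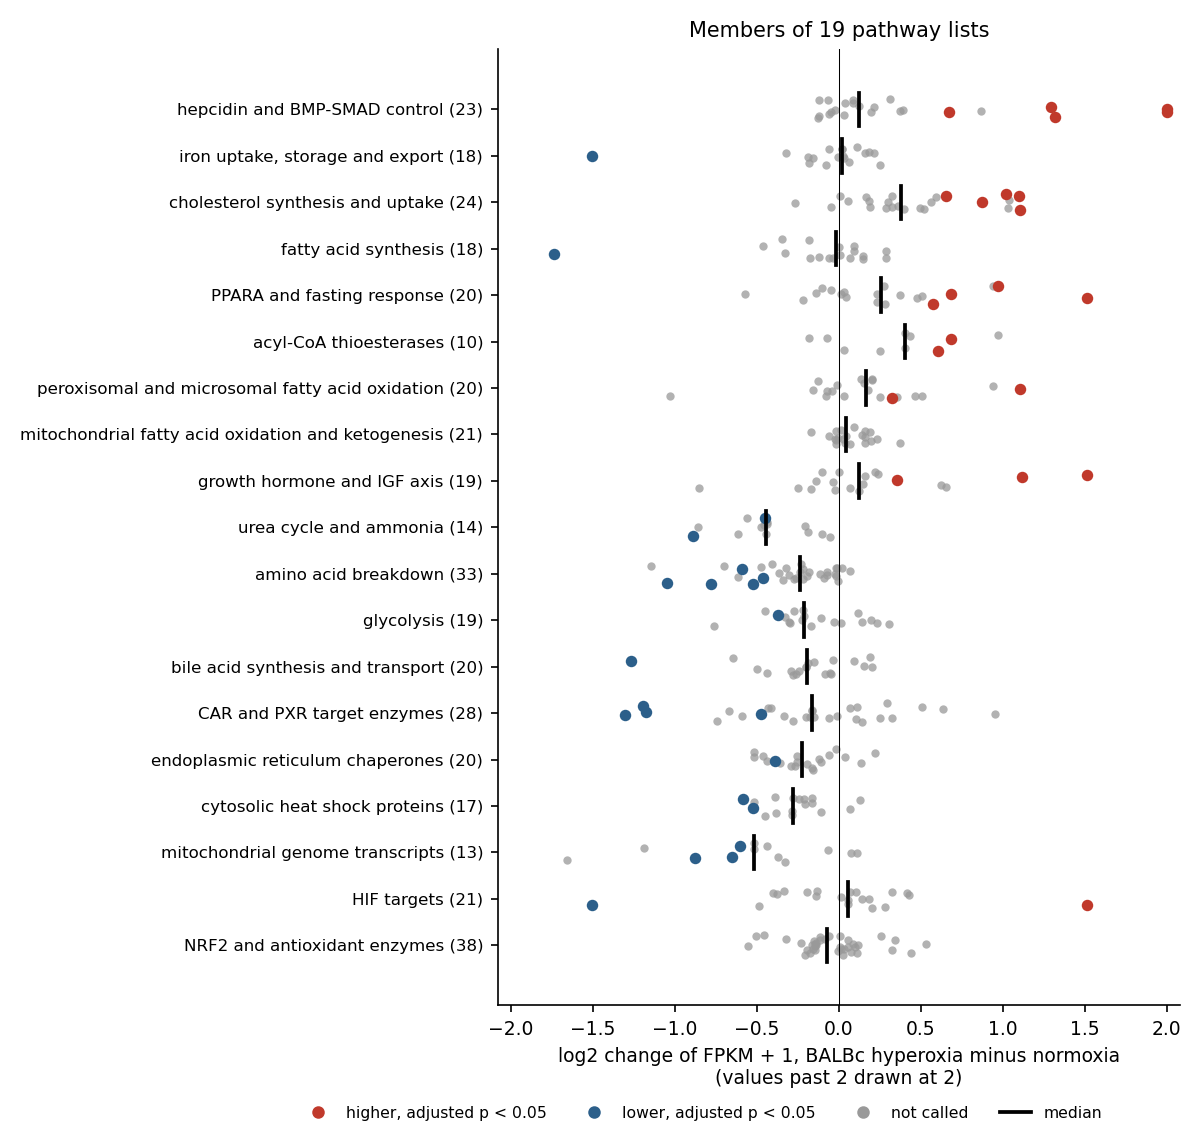
Log2 change of FPKM + 1 in BALBc hyperoxia minus BALBc normoxia for the measured members of 19 gene lists, whose number is in brackets; each point is a gene, black bars are list medians, and Hamp and Hamp2 are drawn at the right edge. Called genes of cholesterol synthesis lie to the right of 0 and those of the urea cycle and amino acid breakdown to the left.

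Several platelet genes rose in hyperoxia. All 13 measured markers of megakaryocytes and platelets had a log2 change above 0, with a median of 0.78. Of these, 5 were called higher and 9 lay above normoxia in all hyperoxia libraries, beside 0.486% and 6.61% of all genes. In bulk RNA more cells of a type and more RNA per cell cannot be told apart, nor can fewer cells and less RNA per cell. Their summed level was 68.0 to 85.1 FPKM in hyperoxia and 30.6 to 42.5 FPKM in normoxia. Tubb1, the tubulin of platelets, gave 4.72, 7.45, 4.99 and 6.901 FPKM in hyperoxia and 1.41, 1.94 and 2.02 FPKM in normoxia and rose by 1.32 ± 0.28 (limma adjusted p = 0.0367, highest 0.109 without normoxia 3). Ppbp, a platelet chemokine, gave 16.5, 23.3, 17.1 and 22.7 FPKM in hyperoxia and 8.49, 6.89 and 7.65 FPKM in normoxia and rose by 1.25 ± 0.22 (limma adjusted p = 0.0123, highest 0.0732 without normoxia 3). Hyperoxia libraries 2 and 4 were the highest of the group for both genes.

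Pf4, platelet factor 4, gave 15.04, 17.4, 12.3 and 13.9 FPKM in hyperoxia and 8.99, 5.13 and 6.998 FPKM in normoxia and rose by 0.98 ± 0.21 (limma adjusted p = 0.0373, highest 0.167 without normoxia 2). Itgb3 and Itga2b encode the subunits of the fibrinogen receptor of platelets. Itgb3 gave 4.39, 4.41, 4.19 and 4.43 FPKM in hyperoxia and 2.45, 1.51 and 2.37 FPKM in normoxia, almost the same in all hyperoxia libraries, and rose by 0.80 ± 0.12 (limma adjusted p = 0.00461). Itga2b gave 3.64, 5.098, 3.62 and 3.66 FPKM in hyperoxia and 2.17, 1.81 and 2.04 FPKM in normoxia and rose by 0.73 ± 0.13 (limma adjusted p = 0.0123, highest 0.0708 without normoxia 3). The list had 1 call without normoxia 2 or normoxia 3, 3 without any 1 hyperoxia library, and none in the libraries with few genes at 1 fragment alone, while the list's median was 0.65 or more in each of these.

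Markers of other blood lineages did not pass the test. None of 23 measured erythroid genes was called, although their median was 0.46 and 8 lay above normoxia in all hyperoxia libraries. Slc4a1, the red cell anion exchanger, had 0.80 ± 0.27 (limma adjusted p = 0.185), while the adult globin Hbb-bs had 0.01 ± 0.26. The summed erythroid level, mostly globin, was 1490 to 2012 FPKM in hyperoxia and 1573 to 1887 FPKM in normoxia. Of 12 neutrophil genes none was called, with a median of 0.26 and a summed level of 123 to 177 FPKM in hyperoxia and 76.3 to 128 FPKM in normoxia. Camp and Ngp, made by neutrophil precursors, were above normoxia in all hyperoxia libraries (1.23 ± 0.33 and 0.91 ± 0.33, limma adjusted p = 0.0877 and 0.233). The part of blood-forming cells in the platelet result was not tested.

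None of 19 Kupffer cell and macrophage markers, 7 lymphocyte markers, 21 sinusoidal endothelial markers or 5 bile duct markers was called, with medians of 0.08, 0.20, 0.07 and -0.04. Rgs5, a pericyte gene that limits G protein signals, was the 1 call among 22 stellate cell and pericyte markers, whose median was 0.04. It gave 2.58, 2.08, 2.52 and 2.77 FPKM in hyperoxia and 6.91, 6.14 and 8.15 FPKM in normoxia and fell by 1.21 ± 0.19 (limma adjusted p = 0.0062, highest 0.0576 without normoxia 3).

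**Figure D4:**
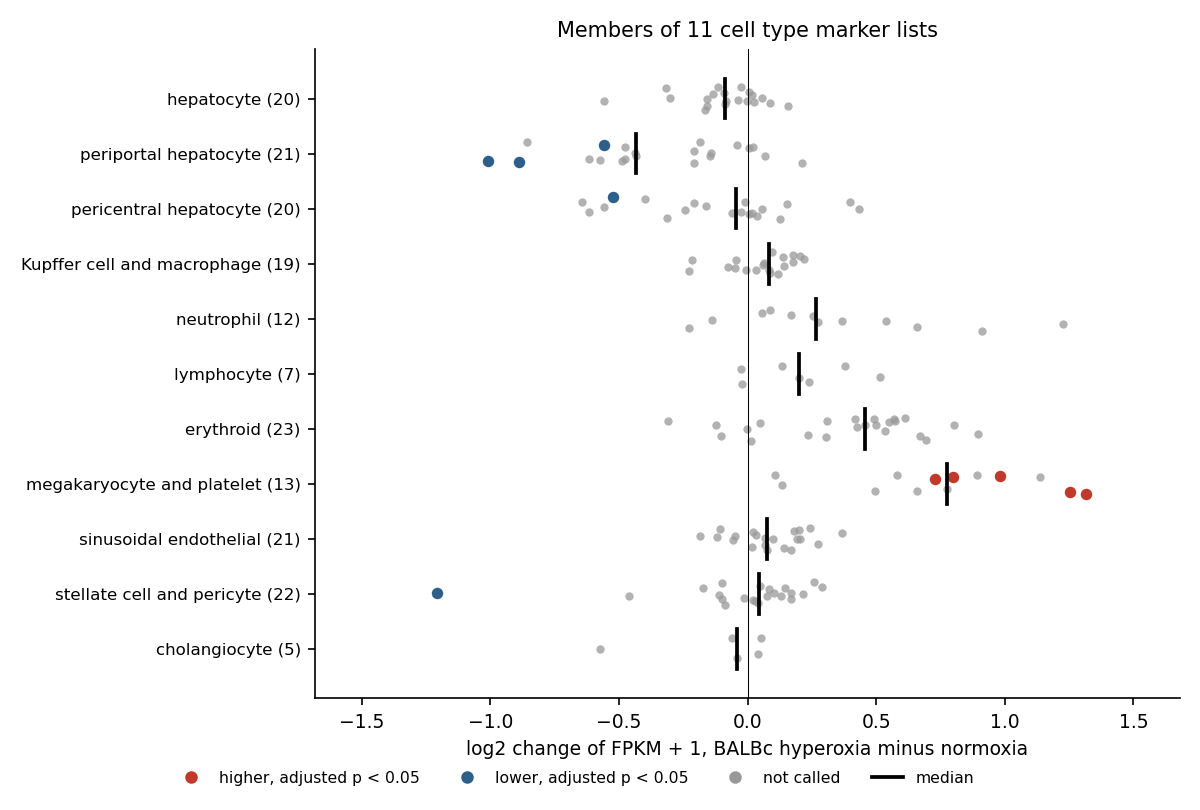
Log2 change of FPKM + 1 in BALBc hyperoxia minus BALBc normoxia for the measured members of 11 lists of cell type markers, whose number is in brackets; points are genes and black bars are list medians. The 13 platelet markers all lie to the right of 0, with a median of 0.78, and the 21 periportal markers have a median of -0.44.

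Other genes with large rises were of mixed function. Ankrd55, which encodes an ankyrin repeat protein, gave 1.67, 2.47, 2.06 and 2.61 FPKM in hyperoxia and 0.344, 0.193 and 0.415 FPKM in normoxia, below FPKM 1 in every normoxia library, and rose by 1.28 ± 0.14 (limma adjusted p = 0.00069). It passed the filter only through the hyperoxia libraries. Serpina1d, an antitrypsin gene, gave 219, 275, 308 and 249 FPKM in hyperoxia and 149.6, 155 and 111 FPKM in normoxia. The rise of 0.92 ± 0.12 (limma adjusted p = 0.00224) held in every refit, but its transcript is identical to that of Serpina1a at 95.1% of 1387 aligned bases and the value is uncertain. Osgin1, an oxidative stress-induced growth inhibitor, gave 235, 272, 217 and 217 FPKM in hyperoxia and 135, 128 and 145 FPKM in normoxia and rose by 0.78 ± 0.11 (limma adjusted p = 0.00265). It was chosen after its values were seen because its call held in every refit. Neither group overlapped with the other in these 3 genes.

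Bmf, which promotes cell death by binding BCL2 proteins, gave 4.24, 6.87, 4.87 and 7.05 FPKM in hyperoxia and 2.44, 2.44 and 1.404 FPKM in normoxia and rose by 1.12 ± 0.19 (limma adjusted p = 0.00975, highest 0.0708 without normoxia 3). Gal3st1, the sulfotransferase that makes sulfatide, gave 7.91, 10.9, 10.9 and 8.91 FPKM in hyperoxia and 5.66, 4.86 and 3.52 FPKM in normoxia and rose by 0.91 ± 0.19 (limma adjusted p = 0.0291, highest 0.159 without normoxia 3). Nipal1, a magnesium transporter, gave 10.2, 10.4, 9.26 and 8.46 FPKM in hyperoxia and 7.26, 2.17 and 4.197 FPKM in normoxia and rose by 1.04 ± 0.23 (limma adjusted p = 0.0402, highest 0.131 without normoxia 3). No hyperoxia library reached down to the normoxia range in these 3 genes, and for Nipal1 normoxia library 1 was well above the other 2.

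Some genes of nitrogen metabolism fell in hyperoxia. All 14 measured genes of the urea cycle and ammonia handling had a log2 change below 0, with a median of -0.45. Of these, 10 lay below normoxia in all hyperoxia libraries and 2 were called, beside 7.61% and 1.18% of all genes. Cps1, which starts the urea cycle in mitochondria, gave 289, 278, 314 and 345 FPKM in hyperoxia and 475, 550.4 and 694 FPKM in normoxia and fell by 0.89 ± 0.17 (limma adjusted p = 0.0178, highest 0.109 without normoxia 3). Otc, the next enzyme, gave 64.2, 57.8, 57.3 and 64.7 FPKM in hyperoxia and 85.1, 83.5 and 82.1 FPKM in normoxia and fell by 0.45 ± 0.10 (limma adjusted p = 0.0469, highest 0.136 without normoxia 3). The 4 hyperoxia values of each gene lay close together and below all normoxia values. Ass1 (-0.86 ± 0.23, limma adjusted p = 0.0921), Asl (-0.44 ± 0.12, 0.0975) and Arg1 (-0.48 ± 0.12, 0.0644), the remaining enzymes of the cycle, were not called. No gene of the list was called without normoxia 2 or 3 or without hyperoxia 1 or 2, 1 was called without hyperoxia 3 or 4, 6 were called in a fit of the 7 BALBc libraries alone, and the median stayed between -0.50 and -0.37 under every alternative.

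Genes of amino acid breakdown fell too, 5 of 33 by the test. Of the 33 measured, 31 had a log2 change below 0, with a median of -0.24, and 17 lay below normoxia in all hyperoxia libraries. Prodh, proline dehydrogenase, gave 4.25, 5.92, 5.096 and 6.12 FPKM in hyperoxia and 11.8, 9.71 and 15.1 FPKM in normoxia and fell by 1.05 ± 0.19 (limma adjusted p = 0.0129, highest 0.0911 without normoxia 3). Tdo2, which opens the ring of tryptophan, gave 120.5, 98.05, 118 and 126 FPKM in hyperoxia and 198, 189 and 210.1 FPKM in normoxia and fell by 0.78 ± 0.12 (limma adjusted p = 0.00642, highest 0.0576 without normoxia 3). Haao, further down the same pathway, gave 102, 109, 104 and 119 FPKM in hyperoxia and 156, 165 and 169.7 FPKM in normoxia and fell by 0.59 ± 0.09 (limma adjusted p = 0.00537). The groups were apart in all 3 genes.

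Hpd, an enzyme of tyrosine breakdown, gave 381, 466, 413 and 449 FPKM in hyperoxia and 604, 547 and 693 FPKM in normoxia and fell by 0.52 ± 0.11 (limma adjusted p = 0.0351, highest 0.179 without normoxia 3). Hgd, which acts right after it, gave 98.4, 108, 105 and 108 FPKM in hyperoxia and 137, 142 and 156 FPKM in normoxia and fell by 0.46 ± 0.08 (limma adjusted p = 0.0123, highest 0.0865 without normoxia 3). Hyperoxia library 1 was the lowest for both. Without normoxia 3 the only call of the list was Haao. Ahcy, which splits S-adenosylhomocysteine in the methionine cycle and was chosen after its values were seen, fell by 0.53 ± 0.08 in every refit (limma adjusted p = 0.00445).

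Markers of hepatocytes around the portal vein and around the central vein gave different counts. Of 21 measured periportal markers, some of them urea cycle genes already given, 3 were called lower, the median was -0.44 and 11 lay below normoxia in all hyperoxia libraries. Of 20 pericentral markers 1 was called lower, the median was -0.04 and 4 lay below. Over all genes tested, 0.695% were called lower and 7.61% lay below. The difference between these lists was not tested. Cyp2f2, a cytochrome P450 of periportal cells, gave 23.6, 20.9, 27.6 and 24.3 FPKM in hyperoxia and 43.1, 58.5 and 47.2 FPKM in normoxia and fell by 1.01 ± 0.18 (limma adjusted p = 0.0123, highest 0.076 without normoxia 2). Uox, urate oxidase, fell by 0.56 ± 0.11 (limma adjusted p = 0.0235, highest 0.11 without normoxia 2) and the pericentral marker Lect2, a secreted protein, by 0.52 ± 0.12 (limma adjusted p = 0.0438, highest 0.127 without normoxia 3). No periportal marker was called without normoxia 2 or 3, and 1 was called without hyperoxia 1 or 2.

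Some detoxifying enzymes fell. Of 28 measured targets of the nuclear receptors CAR and PXR, 4 were called lower and none higher, with a median of -0.16. Members went both ways, with 18 log2 changes below 0 and 10 above, the highest 0.95. In all hyperoxia libraries 9 lay below normoxia and 6 above, against 7.61% and 6.61% of all genes tested. There was 1 call without normoxia 3 and 2 without any 1 hyperoxia library. Sult2a1, which sulfates bile acids and steroids, gave 265, 302, 257 and 289.7 FPKM in hyperoxia and 694, 562 and 633 FPKM in normoxia and fell by 1.17 ± 0.17 in every refit (limma adjusted p = 0.00461). Cyp2c39 gave 3.53, 5.25, 3.32 and 6.43 FPKM in hyperoxia and 10.1, 10.5 and 18.6 FPKM in normoxia and fell by 1.30 ± 0.22 (limma adjusted p = 0.0107, highest 0.0708 without normoxia 3). Cyp2a5 gave 7.21, 12.4, 7.09 and 12.3 FPKM in hyperoxia and 18.96, 30.1 and 20.97 FPKM in normoxia and fell by 1.20 ± 0.26 (limma adjusted p = 0.0438, highest 0.187 without normoxia 2). Cyp3a13 fell by 0.47 ± 0.11 (limma adjusted p = 0.0485, highest 0.186 without normoxia 3). These cytochrome P450 genes and Sult2a1, identical to Sult2a2 at 97.6% of 739 aligned bases, belong to families of near-copies, so single values are uncertain.

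Cyp2c70, the enzyme that makes muricholic acids in mice, gave 145, 133, 121 and 162 FPKM in hyperoxia and 287, 257 and 264 FPKM in normoxia, with every hyperoxia library far below every normoxia library, and fell by 0.94 ± 0.12 in every refit (limma adjusted p = 0.00185). Baat, which joins bile acids to taurine, gave 7.17, 5.97, 4.88 and 8.39 FPKM in hyperoxia and 15.2, 17.4 and 18.7 FPKM in normoxia and fell by 1.27 ± 0.21 (limma adjusted p = 0.00987, highest 0.0708 without normoxia 3). Baat was the 1 call among 20 measured genes of the list of bile acid synthesis and transport, which does not include Cyp2c70. The median of this list was -0.19, and Cyp7a1, the rate-limiting enzyme, had -0.65 ± 0.24 (limma adjusted p = 0.236).

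Among plasma proteins of the liver a few fell. Mug1, a murinoglobulin that traps proteases, gave 48.3, 46.02, 61.5 and 59.9 FPKM in hyperoxia and 123, 105 and 167 FPKM in normoxia and fell by 1.26 ± 0.16 (limma adjusted p = 0.00185). It was the 1 fall beside the rise of Serpina1d among 22 plasma protease inhibitors, whose median was -0.10, and its transcript is identical to that of Mug2 at 95.2% of 4571 aligned bases. Serpina6, the carrier of corticosteroids in blood, gave 229, 232, 256 and 262 FPKM in hyperoxia and 468, 500.4 and 462 FPKM in normoxia and fell by 0.96 ± 0.21 (limma adjusted p = 0.0428, highest 0.144 without normoxia 2). Saa4, an apolipoprotein of the serum amyloid A family that inflammation does not induce, gave 52.1, 51.4, 55.2 and 55.9 FPKM in hyperoxia and 87.8, 107 and 101 FPKM in normoxia and fell by 0.86 ± 0.10 (limma adjusted p = 0.00067). It was the 1 call among 17 acute phase plasma proteins, whose median was -0.09, and Saa1, the inducible member, had -0.02 ± 0.20. In each of these 3 genes all hyperoxia libraries were lower than all normoxia libraries.

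Further large falls were those of genes of mixed function. Fam213b, a prostamide synthase, gave 19.2, 18.3, 22.8 and 18.5 FPKM in hyperoxia and 36.5, 50.7 and 45.98 FPKM in normoxia and fell by 1.13 ± 0.18 (limma adjusted p = 0.00944, highest 0.0648 without normoxia 3). Pde9a, which breaks down cyclic GMP, gave 0.762, 1.36, 1.07 and 1.01 FPKM in hyperoxia and 3.74, 2.72 and 3.88 FPKM in normoxia and fell by 1.11 ± 0.17 (limma adjusted p = 0.00642, highest 0.0576 without normoxia 3). In both genes the groups were well apart. Nat8f1, of a family of acetyltransferases, fell by 1.07 ± 0.18 (limma adjusted p = 0.00944, highest 0.0708 without normoxia 3), Paxx, a DNA repair protein, by 0.91 ± 0.19 (limma adjusted p = 0.0331, highest 0.13 without normoxia 3), and Noct, nocturnin, by 0.92 ± 0.21 (limma adjusted p = 0.0473, highest 0.199 without normoxia 3). Noct was below FPKM 1 in every hyperoxia library and passed the filter only through the normoxia libraries. Khk, the kinase that starts fructose breakdown and which was chosen after its values were seen, fell by 0.63 ± 0.08 in every refit (limma adjusted p = 0.00185). Gm17622 was listed at 0 in all hyperoxia libraries, but it has 45 exon bases and only 2, 1 and 4 fragments in the normoxia libraries, so no fold is given.

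Transcripts of the mitochondrial genome had a median log2 change of -0.52 over 13 measured genes, of which 3 were called lower, and 1 without normoxia 3. mt-Cytb, the mitochondrial subunit of complex III, gave 2073, 1913, 1912 and 1991 FPKM in hyperoxia and 3798, 3307 and 3766 FPKM in normoxia and fell by 0.88 ± 0.12 in every refit (limma adjusted p = 0.00224). mt-Nd5 and mt-Nd6, subunits of complex I, fell by 0.60 ± 0.11 and 0.65 ± 0.12 (limma adjusted p = 0.0126 and 0.0187, highest 0.0858 without normoxia 3 and 0.0879 without normoxia 3). The summed level was 22469 to 27758 FPKM in hyperoxia and 27230 to 32096 FPKM in normoxia, so the groups overlapped in the sum. mt-Nd6 lies on the other strand from its neighbours, and as no source used here states whether the libraries keep strand, their reads may be mixed; nuclear copies of mitochondrial genes add to the uncertainty. The list's median was -0.26 without normoxia 1 and -0.65 without normoxia 2. No gene of the citric acid cycle was called among 19, with a median of -0.03.

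Of 17 measured cytosolic heat shock genes 15 were below 0, 9 lay below normoxia in all hyperoxia libraries, the median was -0.28 and 2 were called lower, 1 without normoxia 2 or 3. Fkbp4, a partner of HSP90 in steroid receptor folding, gave 51.1, 57.8, 58.4 and 54.1 FPKM in hyperoxia and 77.3, 88.04 and 84.97 FPKM in normoxia and fell by 0.58 ± 0.08 in every refit (limma adjusted p = 0.00421). Hsp90aa1, the inducible HSP90, gave 38.8, 30.7, 32.5 and 35.6 FPKM in hyperoxia and 53.2, 49.05 and 47.2 FPKM in normoxia and fell by 0.53 ± 0.09 (limma adjusted p = 0.0129, highest 0.0576 without normoxia 3). Of 20 chaperones of the endoplasmic reticulum 17 were below 0 and 12 below normoxia in all hyperoxia libraries, with a median of -0.22. Pdia6, a disulfide isomerase, was the 1 call, with -0.39 ± 0.08 (limma adjusted p = 0.0216, highest 0.108 without normoxia 2), and Hspa5, the main chaperone of that compartment, had -0.36 ± 0.12 (limma adjusted p = 0.206).

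The counts for genes that sense or answer to oxygen stand beside 1.18% called of all genes tested. At that share a list of this size often holds no call. None of 8 measured subunits and sensors of the hypoxia-inducible factor (HIF) was called, with a median of -0.04. Among 21 HIF targets the 2 calls were Igfbp1 and Tfrc, given above and opposite in direction, and the median was 0.06. Vegfa, the growth factor of blood vessels, had 0.06 ± 0.09 and the oxygen sensor Egln3 -0.33 ± 0.18 (limma adjusted p = 0.462). None of 38 measured genes of the antioxidant list, many of them targets of NRF2, was called, with a median of -0.07. Osgin1, the oxidative stress-induced growth inhibitor given above as called higher, is not in that list. Nqo1, a quinone reductase that NRF2 controls, had 0.44 ± 0.34 (limma adjusted p = 0.655), Hmox1, haem oxygenase 1, 0.42 ± 0.11 (0.0975), and Gpx1, a glutathione peroxidase, -0.50 ± 0.14 (0.111). None of 16 p53 targets, 19 genes of the integrated stress response, 28 interferon-stimulated genes, 38 cell cycle genes or 17 clock genes was called, with medians of 0.01, 0.05, -0.00449, -0.09 and 0.05.

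In glycolysis 1 of 19 genes was called, Eno1, enolase 1, which fell by 0.37 ± 0.08 (limma adjusted p = 0.0383, highest 0.166 without normoxia 2); the median was -0.21 and 9 lay below normoxia in all hyperoxia libraries. In gluconeogenesis and glycogen metabolism 1 of 14 was called, Slc37a4, the transporter of glucose 6-phosphate, which fell by 0.49 ± 0.10 (limma adjusted p = 0.0284, highest 0.13 without normoxia 3), with a median of -0.15. Pck1 and G6pc, which carry out the controlled steps of glucose output, had -0.14 ± 0.14 and -0.57 ± 0.22, neither of them called. Eno1 and other glycolytic genes have pseudogene copies, so their reads may have been divided.

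The BALBc response was set against the C57 response by testing their difference in the same model, where each strain has its own controls. Of the 11943 genes, 113 (0.946%) were called in C57 and 116 (0.971%) for the difference of responses, 55 with the larger value in BALBc and 61 with the lower. Of the 141 genes called in BALBc, 52 were also called for the difference, 16 of the 58 that rose and 36 of the 83 that fell. All 4 C57 hyperoxia libraries and 1 of the 4 C57 normoxia libraries had many genes at 1 fragment, so in C57 this trait moves with oxygen and its part in the difference was not tested; with the trait as a term, 50 genes were called for the difference, and leaving out 1 library gave 40 (without BALBc hyperoxia 2) to 167. Called in both strains were 11 genes, 7 of them in the same direction.

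Hamp rose in both strains, by 6.36 ± 0.55 in BALBc and 2.45 ± 0.51 in C57 (limma adjusted p = 0.00011 and 0.0373), and the difference of 3.91 ± 0.75 was called (limma adjusted p = 0.0245). In C57 it had 59.7 to 212 FPKM in hyperoxia and 8.49 to 31.8 FPKM in normoxia, so BALBc normoxia, at 1.11 to 2.68 FPKM, was the lowest of the 4 groups. Hamp2, Eno1, Rgs5 and the fatty acid binding protein Fabp4 also moved the same way in both strains, and their differences were not called. Tfrc fell by 1.51 ± 0.21 in BALBc and had -0.78 ± 0.19 in C57 (limma adjusted p = 0.0772), a difference that did not pass (limma adjusted p = 0.28).

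Mug1 fell by 1.26 ± 0.16 in BALBc and rose by 1.06 ± 0.15 in C57 (limma adjusted p = 0.00185 and 0.00563, difference 0.0002). Cyp2c70 fell by 0.94 ± 0.12 in BALBc and rose by 0.54 ± 0.11 in C57 (limma adjusted p = 0.00185 and 0.036, difference 0.00087). Acot2 rose by 0.61 ± 0.10 in BALBc and had a fall of 0.46 ± 0.10 in C57 (limma adjusted p = 0.0107 and 0.0358, difference 0.00424). Thrsp, Igfbp1, Igfbp2, Ppbp and Ankrd55 changed in BALBc and passed the test of the difference (limma adjusted p = 0.00424, 0.0233, 0.0117, 0.0158 and 0.0117). Their C57 values of -0.07 ± 0.15, -0.15 ± 0.21, -0.53 ± 0.17, -0.51 ± 0.20 and -0.00038 ± 0.13 were not called. Ankrd55 was at 0.3 FPKM or less in every C57 library, so on this scale its C57 value could only lie near 0. Its difference therefore repeats its BALBc change. Marco, a macrophage receptor that fell in C57, had 0.06 ± 0.27 in BALBc (difference 0.0117), and Serpina3k, a protease inhibitor that rose in C57, had -0.53 ± 0.42 in BALBc (difference 0.017).

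The list medians were 0.38 in BALBc and 0.16 in C57 for cholesterol synthesis, -0.45 in BALBc and 0.05 in C57 for the urea cycle, and -0.24 in BALBc and -0.01 in C57 for amino acid breakdown. They were 0.78 in BALBc and -0.14 in C57 for platelet genes, 0.26 in BALBc and -0.14 in C57 for PPARA targets, and -0.28 in BALBc and 0.00103 in C57 for heat shock genes. The difference between the strains was called for 5 of 20 PPARA and fasting genes, 3 of 33 genes of amino acid breakdown, 2 of 13 platelet genes, 1 of 17 heat shock genes, 1 of 14 urea cycle genes (Cps1, limma adjusted p = 0.0269) and none of 24 cholesterol genes, beside 0.971% of all genes tested. The lists as such were not tested for a difference.

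**Figure D5:**
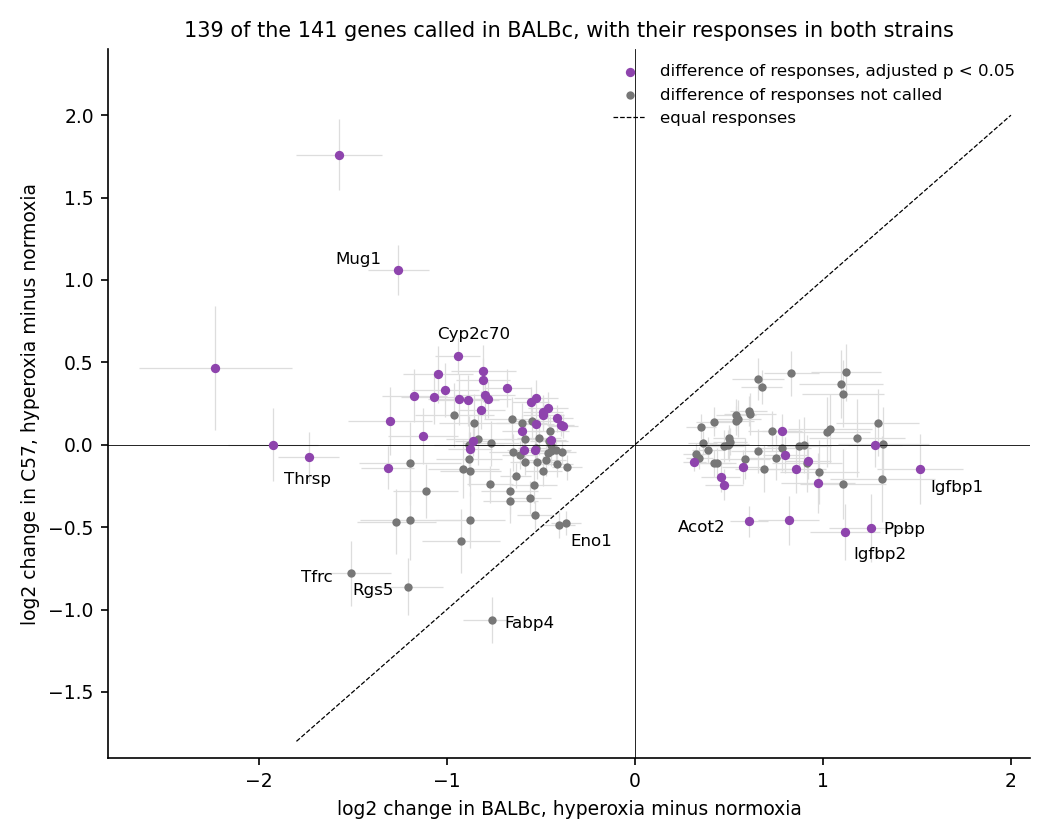
Log2 change in C57 (hyperoxia minus normoxia, up) against that in BALBc (across) for 139 of the 141 genes called in BALBc, with standard errors as bars; Hamp and Hamp2 lie beyond the right edge, at 6.36 and 3.47 in BALBc. Purple points are genes whose difference of responses was called, and Mug1 and Cyp2c70 lie at upper left, below 0 in BALBc and above 0 in C57.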

How the data were processed

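Total RNA of mouse liver was extracted with TRIzol and made into libraries with NEBNext Ultra II, per the labels' protocols. Per the submitters' processing notes, HISAT2 (2.0.5), featureCounts (1.5.0-p3) and the builds GRCm38 and mm10 were used; whether the libraries keep strand is not stated in any source used here. The deposited values are FPKM per gene, made by the authors. From them the depth was read back as the step of 1 fragment: 98.17% to 98.63% of low values (under 30 fragments) were whole in BALBc libraries, within 0.05. Read counts themselves were not used, so intervals on depth cover counting error only.

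Of 54532 genes, 54495 matched GENCODE M21. Genes with FPKM of at least 1 in at least 3 of the 7 BALBc libraries were tested with limma (3.58.1, R 4.3.3), with empirical Bayes and a variance trend, on log2(FPKM + 1), with 1 mean per group over all 15 libraries, two-sided, at an adjusted p under 0.05. The test was checked on simulated data. Lists were described by counts and medians, with no set test. The genes named by rule are the 20 largest rises and falls among called protein-coding genes (mean FPKM 2 or more where higher), the called members of each list and its members of smallest p, of which uncalled ones are mostly given as counts, and the 5 largest differences between the strains in each direction. Others were named for their role or chosen after their values were seen. A few genes under this rule are left out of the text. The members and lists were chosen with earlier results of these data known. The alternatives were other filters, pseudocounts, scalings and weights, covariates, subsets of libraries, a replicate block, and leaving out each library.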

Additional observations from a re-analysis of the deposited data

Results flagged for a closer look

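One BALBc hyperoxia library stood apart from its group in 8 of the 119 genes and in 4 of the 44 gene lists examined, by the gap to its nearest neighbour over the range of the 4 libraries (Dixon's test). Chance flags about 1 in 20 such groups. BALBc hyperoxia 1 was the one apart for Hamp (67.8 FPKM), Tfrc (23.9), Hmgcs1 (82.9) and Afp (58.0), and for the summed FPKM of hepcidin and BMP genes (641.9), haem genes (4887.6), acute phase proteins (9890.2) and periportal markers (2779.9). BALBc hyperoxia 2 was apart for Itga2b (5.10), library 3 for Igfbp1 (231) and Bmp2 (8.42), and library 4 for Hmox1 (27.9).

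For 41 of the genes in the text the limma test of the difference between the responses of BALBc and C57 passed at an adjusted p under 0.05. The values are log2 changes in BALBc minus those in C57. Larger in BALBc were Hamp (3.91), Afp (2.65), Marco (2.28), Cyp4a10 (1.93), Ppbp (1.76), Igfbp1 (1.67), Slc4a1 (1.65), Igfbp2 (1.65), Ankrd55 (1.28), Hmox1 (1.26) and Pdk4 (1.21). Further such genes were Acot2 (1.07), Serpina1d (1.02), Peg3 (1.01), Itgb3 (0.86), Blvrb (0.72), Txnip (0.71) and Osgin1 (0.70).

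Lower in BALBc were Serpina3k (-3.21), Mug1 (-2.32), Mug2 (-2.02), Gm17622 (-1.93), Thrsp (-1.66), Cyp2c70 (-1.48), Prodh (-1.47), Sult2a1 (-1.47), Cyp2c39 (-1.45), Nat8f1 (-1.35), Cyp2f2 (-1.34) and Fam213b (-1.18). Further such genes were Cps1 (-1.16), Tdo2 (-1.06), Rab27a (-1.03), Saa4 (-0.88), mt-Cytb (-0.85), Lect2 (-0.81), Sult2a2 (-0.69), mt-Nd5 (-0.68), Hsp90aa1 (-0.65), Haao (-0.56) and Ahcy (-0.49). Hmox1 and Afp differed between the strains while their BALBc changes of 0.42 ± 0.11 and 1.38 ± 0.35 were not called. Marco, Cyp4a10, Slc4a1, Serpina3k and Mug2 also differed without being called in BALBc. The fitted value of Gm17622, listed at 0 in all BALBc hyperoxia libraries, depends on the pseudocount and is no bound on a fold. That of Ankrd55, at 0.3 FPKM or less in every C57 library, repeats its BALBc change.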

How the results depend on the processing

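No gene called in BALBc changed its direction under any alternative. Leaving out libraries could not have turned a direction, because the groups did not overlap in any of the 141 genes. The count of 141 became 81 with no filter, 24 in the libraries with few genes at 1 fragment alone and 91 with the 2 BALBc libraries with many left out, an alternative chosen after seeing the data. It was 104 with Xist as a covariate, 193 with the BALBc libraries alone and 27 to 187 when 1 library was left out. The cause was not tested. The count of 116 for the difference between strains became 49 with array weights, 50 with the library class as a term, 33 with no filter and 40 to 167 when 1 library was left out. The deviations of same-numbered libraries from their group means had correlations of 0.23, -0.0243 and 0.0506. The value of 0.23, for the replicates numbered 1, was the highest of any hyperoxia and normoxia pair, but not every library correlated best with its own number. Deviations within a group are tied to each other, so these values cannot decide whether the numbers pair the samples. The main fit used no pairing. With a replicate block 128 genes were called, 102 of them among the 141, and 95 for the difference. Of 1204 recomputed list medians, 1121 lay within 1 SD of the reported value. This SD is the spread of the list median over the BALBc hyperoxia libraries and leaves out the spread in normoxia. Some of the 1204 could not move, because leaving out a C57 library or fitting BALBc alone leaves the BALBc changes the same. The 32 that took the other sign came from lists with absolute medians of at most 0.098. Genes under FPKM 1 rest on few fragments.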
